A study of Mus musculus with 2 samples.

Results

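The mitosis and G2/M genes are 43 genes that encode the cyclins, kinases, spindle, kinetochore, condensin and cytokinesis proteins of dividing cells. They were taken from a list of symbols, and a gene was counted where a probe with its RefSeq accession was present on both arrays. All 43 were found among the 22909 genes that could be named on the arrays. All 43 were also well above background on both arrays, whereas 14669 of the 22909 genes had a value at all.

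RNA of whole colon of C57BL/6 mice, 8 weeks old by the study's text, was hybridized in 1 colour (Cy3) to Agilent mouse expression arrays, with 1 array per genotype. The control array was labelled Villin-Cre, mice that carry Cre recombinase under the villin promoter, which is active in intestinal epithelium. The other array was labelled Villin-Cre; EP4flox/flox (EP4 cKO), mice in which this Cre removes a floxed part of Ptger4, the gene of the prostaglandin E2 receptor EP4, from the epithelium and not from other cells. Both groups therefore carry Cre, and per the labels each array received RNA pooled from 3 pools of colon tissue. A single array per genotype leaves every difference without a replicate check, so no test was made and the values below describe these arrays only. The targeted gene did not settle the labels. At its brighter probe Ptger4 read 6227 (labelled Villin-Cre) and 5661 (labelled EP4 cKO) in normalized signal, a log2 ratio of -0.14, and its other probe read 393 and 592, a log2 ratio of 0.59. Whether these probes lie in the floxed part was not determined, so every direction below rests on the labels of the arrays.

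A cell that has copied its DNA enters mitosis when CDK1, bound to cyclin B, is switched on by the CDC25 phosphatases. The spindle then attaches to chromosomes at their kinetochores, a checkpoint delays the anaphase-promoting complex until all are attached, and that complex triggers separation of the sister chromatids by destroying securin and cyclin B. Transcripts of these proteins are made late in the cycle, under the DREAM and MuvB complexes and FOXM1, so that their level in a tissue follows the cells in G2 and mitosis. In the colon such cells lie in the lower part of the crypt, above and among the stem cells.

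Of the 43 genes, 42 had a lower normalized signal on the array labelled EP4 cKO than on the array labelled Villin-Cre. Their median log2 ratio (EP4 cKO over Villin-Cre) was -0.80, which is 1.74-fold lower, with quartiles of -0.98 and -0.59. The 14669 genes with a value had a median of -0.10 and quartiles of -0.45 and 0.18, and 57.5% of them had a ratio below 0. The set was thus shifted as a whole by -0.70 against the arrays' median gene, rather than led by a few members. More than 2-fold lower were 10 of the 43 (23.3%), against 7.87% of all genes with a value, and 0 were more than 2-fold higher, against 4.86%. At 1.5-fold the count was 33 of 43 (76.7%), against 18.6% of all genes, with 0 higher, against 9.84%. At 3-fold 0 of the 43 were lower, against 3.63%, and 0 higher, against 2.21%. Of the 43, 36 lay among the lowest 25% of all genes and 16 among the lowest 10%. Under the scaling used here the lowest ratios of the set were those of Cenpf, Aspm, Cdc25b, Ckap2 and Mki67. This order depended on the scaling, as with normexp and quantile normalization Aspm had -0.77 and Cdc25b -0.56, above Aurka at -0.94.

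Signals were scaled so that the trimmed mean of each array was 2500, and the log2 scale counts doublings, so that -1 is 2-fold lower. The 2-fold count depended on that scaling. It was 1 of 43 (2.33%) with scaling to the 75th percentile (Cenpf), against 6.18% of all genes, and 1 (2.33%) with normexp and quantile normalization (Mki67), against 2.67%. It was 2 (4.65%) with loess on signal (Cenpf and Mki67), against 4.72%, and 3 (6.98%) with a trimmed mean over all spots, against 6.43%. At 2-fold the share of the set was therefore above that of all genes by a clear margin under the scaling used here and not under these others. At 1.5-fold, counted in this way after the values were seen, it was 53.5%, 55.8%, 60.5% and 58.1% of the set in the same order, against 13.3%, 9.85%, 12.1% and 14% of all genes. With scaling to the E1A controls, described next, 0 of the 43 were lower past 1.5-fold, against 3.48% of all genes. These settings raised the median of all genes from -0.10 to 0.00 or, with loess, to 0.04, and the median of the set then differed from it by -0.68 to -0.60. The absolute direction rests on the arrays being set to equal totals. Relative to the 8 E1A control probes, which bind RNA of the maker's spike-in kit and had a median log2 ratio of -1.04, the median of the 43 genes was 0.24 and that of all genes 0.87, so that the sign turned while the difference between them was still -0.63. Under each of these settings 42 or 43 of the genes were below the median of all genes.

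**Figure D1:**
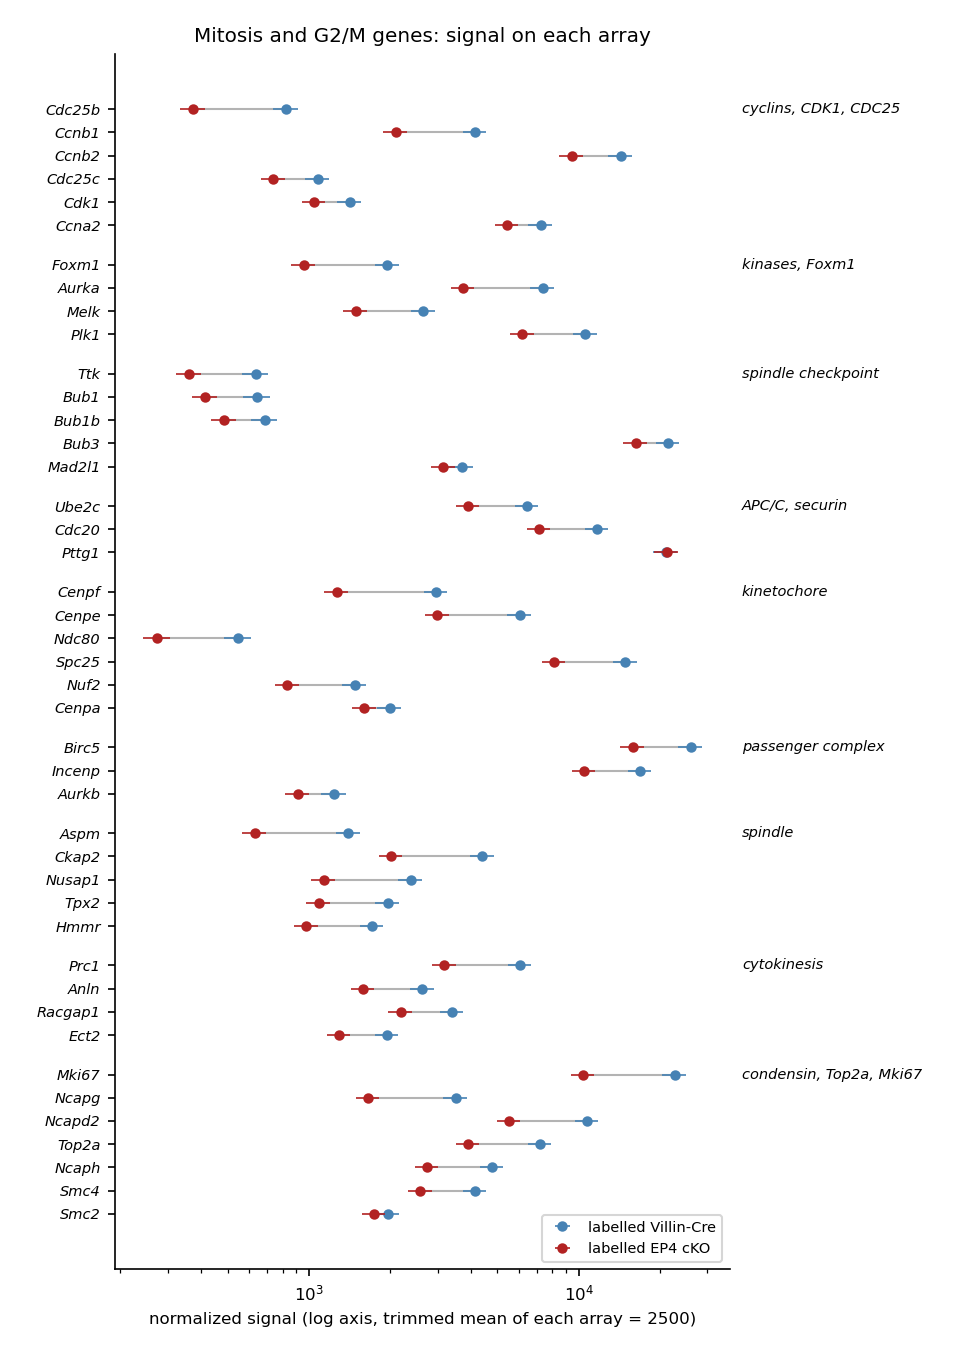
Normalized signal (log axis) of the 43 genes on the array labelled Villin-Cre (blue) and the array labelled EP4 cKO (red), grouped by role, with the scanner software's error of each signal as a bar. The red point lies left of the blue one for 42 genes and on it for Pttg1 (21040 and 21185).

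The lower ratios were found across the range of signal of the set. Their mean signals ran from 388 to 21112, a range that held 9164 genes with a median log2 ratio of -0.14, of which 4.63% were more than 2-fold lower. When all genes were divided into 10 equal groups by mean signal, 41 of the 43 were below the median of their own group, the exceptions being Pttg1 and Smc2. The error the scanner software gives each spot put the error of a log2 ratio at 0.20 to 0.23, and 38 genes were more than 2 such errors below 0. The other 5 were Bub3, Mad2l1, Pttg1, Cenpa and Smc2. That error covers the spot and not the mice. The share of all genes past this cut was not computed. Ccna2, at -2.03 errors, lay just past it, and 26.9% of all genes had a lower ratio than Ccna2. Among 252 gene probes spotted 9 or more times the log2 ratio varied over spots with a median SD of 0.035, whereas each of the 71 probes of the 43 genes had 1 spot. Of these 71 probes, 65 were well above background on both arrays, and 63 of the 65 had a ratio below 0. In 17 of the 18 genes with several such probes all of them were below 0, and the probes of a gene differed by a median of 0.24.

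**Figure D2:**
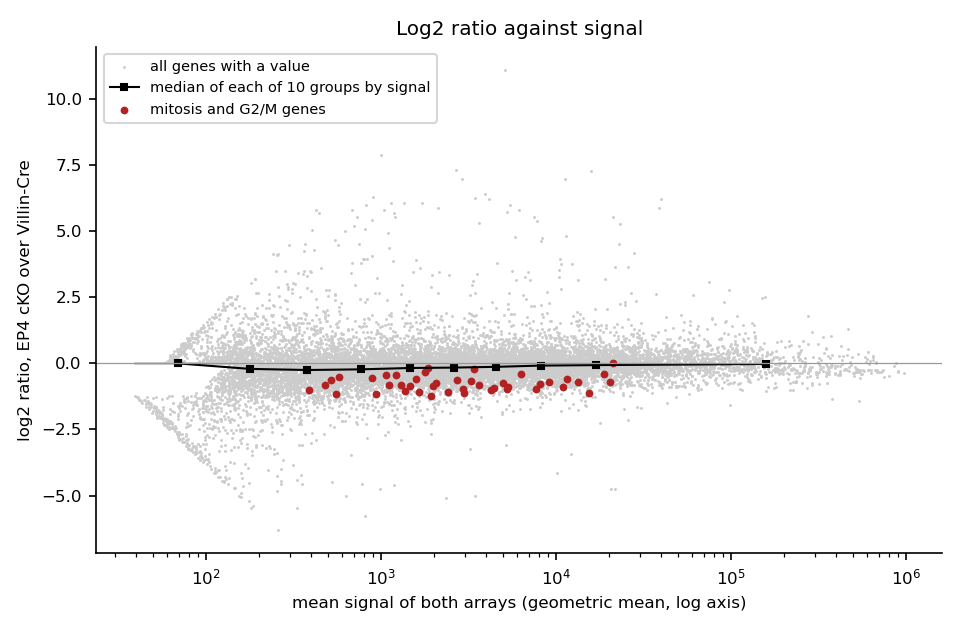
Log2 ratio (EP4 cKO over Villin-Cre) against the mean signal of both arrays (log axis) for the 14669 genes with a value (grey) and the 43 mitosis and G2/M genes (red), with the median of each of 10 groups of genes by signal (black squares). 41 of the red points lie below the median of their group, and the grey diagonal edges at low signal are ratios held at the background floor.

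Cells other than those of the crypt were measured in the same RNA, and several of their markers moved with the set. All 7 fibroblast markers with a value, collagen genes among them, were lower past 2-fold on the array labelled EP4 cKO (3 of them as bounds), with summed signals of 13707 (labelled Villin-Cre) and 598 (labelled EP4 cKO). Of the smooth muscle markers, Cnn1 (log2 ratio -2.73) and Myl9 (-2.15) were lower, Acta2 (0.62) and Actg2 (0.72) were higher, and Myh11 was near background on both arrays and Des above it only on the array labelled EP4 cKO, though the tissue was described as whole colon. Their 7 genes with a value summed to 33520 and 47504. All 12 epithelial markers were well above background on both arrays with a median of 0.21, and Krt20, a keratin of mature surface colonocytes, was 3.48-fold higher. Of 14 crypt stem and progenitor genes, 13 had a ratio below 0, against 57.5% of all genes, and 10 were below the median of all genes. The median of the list was -0.17, with summed signals of 169930 and 119169. Past 2-fold was 1 of them (7.14%, against 7.87% of all genes), the stem cell marker Lgr5 (1541 and 723, log2 ratio -1.09). Ascl2, another stem cell marker, had -0.93, and Cd44 was the 1 gene above 0 (0.96). Of the enteric neuron and glia list only Elavl4 and Uchl1 had a value, and Uchl1 was more than 2-fold lower (-1.43). The median was 0.16 for B cell (4 of 8 with a value), 0.31 for plasma cell (4 of 6), -0.01 for T cell (8 of 8), 0.00 for macrophage (5 of 8) and -0.05 for endothelial markers (2 of 6), and of these genes Cd3g and, as a bound, Mrc1 were more than 2-fold higher. The part of these shifts in the ratios of the mitotic genes was not tested. In RNA of a tissue, fewer dividing cells and less of a transcript per dividing cell cannot be told apart.

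The genes share short strings in their promoters, which the choice of genes did not use. The cell cycle genes homology region (CHR, TTTGAA or TTCGAA) is bound by MuvB complexes and the CCAAT box by NF-Y, and promoters of G2/M genes are known for having both. Windows from 250 bases before to 50 bases after the gene start in RefSeq (GRCm38.p6) were searched on both strands; TTCGAA reads the same on both and was counted once, and overlapping matches were each counted. A window was given for 36 of the 43 genes, the others being Ccna2, Cdc25c, Aurkb, Incenp, Tpx2, Smc4 and Foxm1. A CHR string lay in 27 of the 36 (75%), against 21.7% of the 27025 genes with a window. CCAAT lay in 27 (75%), against 41.1%, and both lay in 1 window in 25 (69.4%), against 8.61%. Among the genes with a value on the arrays 7.14% had both. An E2F string (TTTCGCGC, TTTCCCGC, TTTGGCGC or TTTGCCGC), typical of G1/S promoters, lay in 3 windows (8.33%; Cdk1, Ncapd2 and Ncapg), against 2.60%. Among the genes with a value it was 4.2%. In 24 genes a CHR string began within 50 bases of the start, and the median position was -5 for CHR and -76 for CCAAT.

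The 6 genes that were more than 2-fold lower and had both strings are shown here. They were chosen because they had the lowest ratios of the set under the scaling used here. They are followed by Pttg1, whose ratio was the only one above 0 under that scaling. Each stretch runs 5′ to 3′ on the strand of the gene from 180 bases before the start to 30 bases from it, with CHR and CCAAT strings (ATTGG where CCAAT is on the other strand) in capitals. Cenpf lies at chr1:189688057-189688266 (minus strand), Aspm at chr1:139454593-139454802 (plus), Cdc25b at chr2:131186768-131186977 (plus), Mki67 at chr7:135716350-135716559 (minus), Ckap2 at chr8:22185790-22185999 (minus), Ncapg at chr5:45669745-45669954 (plus) and Pttg1 at chr11:43425952-43426161 (minus), all in GRCm38.p6.
Cenpf: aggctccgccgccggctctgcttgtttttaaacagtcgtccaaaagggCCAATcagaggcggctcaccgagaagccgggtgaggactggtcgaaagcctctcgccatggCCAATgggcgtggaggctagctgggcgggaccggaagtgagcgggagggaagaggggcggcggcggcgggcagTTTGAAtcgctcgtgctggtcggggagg
Aspm: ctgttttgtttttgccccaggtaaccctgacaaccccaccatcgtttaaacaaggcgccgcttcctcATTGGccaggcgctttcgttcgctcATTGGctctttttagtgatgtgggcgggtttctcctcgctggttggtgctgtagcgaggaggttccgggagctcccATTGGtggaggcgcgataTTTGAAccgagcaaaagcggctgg
Cdc25b: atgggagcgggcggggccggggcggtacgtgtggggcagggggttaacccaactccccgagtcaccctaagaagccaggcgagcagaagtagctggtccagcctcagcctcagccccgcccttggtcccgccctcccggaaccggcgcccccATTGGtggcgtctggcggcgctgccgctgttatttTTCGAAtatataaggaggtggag
Mki67: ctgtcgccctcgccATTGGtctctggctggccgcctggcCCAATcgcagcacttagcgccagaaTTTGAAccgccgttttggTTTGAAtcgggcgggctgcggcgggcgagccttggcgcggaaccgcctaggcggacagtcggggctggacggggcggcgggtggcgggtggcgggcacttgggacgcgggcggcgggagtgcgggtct
Ckap2: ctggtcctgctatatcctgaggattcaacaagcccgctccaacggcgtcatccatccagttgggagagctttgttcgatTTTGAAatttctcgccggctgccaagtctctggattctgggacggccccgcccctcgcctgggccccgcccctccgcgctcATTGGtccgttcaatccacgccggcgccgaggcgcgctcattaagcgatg
Ncapg: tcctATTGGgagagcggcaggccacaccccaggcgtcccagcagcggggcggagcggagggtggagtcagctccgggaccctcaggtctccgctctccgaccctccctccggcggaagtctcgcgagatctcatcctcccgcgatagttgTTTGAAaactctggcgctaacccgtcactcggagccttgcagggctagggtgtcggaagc
Pttg1: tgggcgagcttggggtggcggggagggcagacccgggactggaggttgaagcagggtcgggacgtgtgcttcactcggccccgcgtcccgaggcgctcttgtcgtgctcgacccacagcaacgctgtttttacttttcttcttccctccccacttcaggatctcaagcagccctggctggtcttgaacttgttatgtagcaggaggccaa
In Cenpf, Aspm and Cdc25b a CHR string begins 2, 6 and 7 bases after the first base of the gene, with CCAAT boxes upstream. In Mki67 a pair of CHR strings, at -116 and -98, follows the CCAAT boxes, and in Ckap2 the order is turned, with CHR at -101 and CCAAT at -20. The Pttg1 window holds neither string, and neither do those of Nusap1, Melk, Nuf2, Ncaph, Birc5 and Mad2l1. Within the set the medians with and without the strings were close. The 25 genes with both had a median log2 ratio of -0.81 and the 11 with 1 or none had -0.83. The 810 other genes with both and a value had a median of -0.15, with 10% more than 2-fold lower, and the 10841 without both had -0.10, with 7.43%. A match is a string of letters in this window and not a measured binding site.

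**Figure D3:**
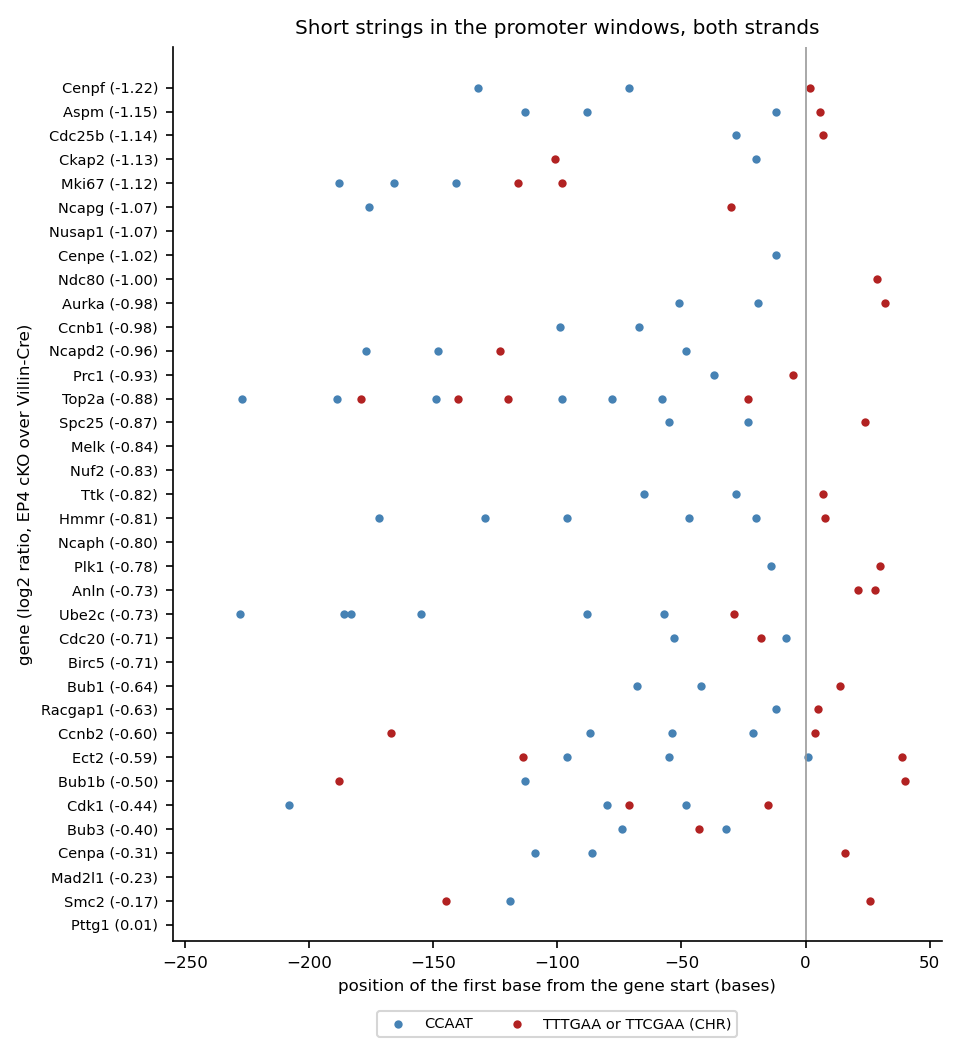
Position of CHR (red) and CCAAT (blue) strings from the gene start, in bases, in the promoter windows of the 36 genes, ordered by log2 ratio (in parentheses) from the lowest at the top. CHR strings gather near the start (median -5) and CCAAT boxes upstream of it (median -76), at the top and at the bottom of the order alike.

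All 6 genes that start mitosis had a lower signal on the array labelled EP4 cKO. Ccnb1, cyclin B1, had signals of 4139 (labelled Villin-Cre) and 2097 (labelled EP4 cKO), the order used for every pair below, and was 1.97-fold lower (log2 ratio -0.98), with -0.64 and -0.76 at its other probes. Cdk1 itself had 1418 and 1046, 1.36-fold lower (-0.44). Ccnb2, the other B-type cyclin of most dividing cells, had 14300 and 9427 (-0.60), and Ccna2, the cyclin of S and G2 phase, had 7237 and 5432 (-0.41). These last 3 differed by less than the error of 1 ratio. Cdc25b, a phosphatase that removes the inhibitory phosphates from CDK1, had 823 and 374 (-1.14; -0.56 with normexp and quantile normalization, above Ccnb1 at -0.81), while Cdc25c, which acts on the same kinase, had 1078 and 738 (-0.55). The median of the role was -0.57, and Cdc25b was its only member past 2-fold (16.7%, against 7.87% of all genes).

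The mitotic kinases and FOXM1 were lower together, with a median of -0.91 over 4 genes. Foxm1, the transcription factor that acts on many G2/M promoters, had signals of 1958 and 959 (2.04-fold lower, log2 ratio -1.03). Aurka, the kinase of centrosomes and spindle poles, had 7360 and 3727, just short of 2-fold (-0.98). Plk1, which acts from mitotic entry to cytokinesis, had 10597 and 6191 (-0.78), and Melk, a kinase of proliferating cells, had 2662 and 1490 (-0.84). All 4 ratios were more than 1.5-fold below 1, against 18.6% of all genes.

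The spindle checkpoint had the smallest shift of the 9 roles, with a median of -0.50. Past 2-fold were 0 of 5 genes, which at the 7.87% of all genes does not set the role apart. Ttk, the MPS1 kinase that starts checkpoint signalling, had 637 and 361 (log2 ratio -0.82). Another of its probes had -0.66, a further one gave no fold, and the mean of its probes was -0.49. Bub1, a kinase at unattached kinetochores, had 643 and 414 (-0.64), and Bub1b, the BUBR1 subunit of the checkpoint complex that inhibits CDC20, had 686 and 487 (-0.50). Bub3, the partner of both, had 21428 and 16273 (-0.40). Mad2l1, the MAD2 subunit that captures CDC20, was nearly level at 3696 and 3156 (-0.23), and its other probe had 716 and 736 (0.04), the only gene of the set whose probes lay on both sides of 0. The order within the role was not stable, as with normexp and quantile normalization Bub1 had -0.20, Ttk -0.36 and Bub3 -0.37.

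Exit from mitosis was split. Cdc20, the activator of the anaphase-promoting complex, had 11716 and 7145 (log2 ratio -0.71), but its other probe had 5226 and 4037 (-0.37). Ube2c, the ubiquitin-conjugating enzyme that serves this complex, had 6432 and 3889 (-0.73). Pttg1, securin, the inhibitor of separase that this complex destroys, had 21040 and 21185 (0.01) and was the exception of the whole set. Its other probe read 120 and 114, was above background only on the array labelled EP4 cKO, and gave no fold. With scaling to the 75th percentile the ratio of Pttg1 was 0.17, and with normexp and quantile normalization it was -0.018.

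The genes of the centromere and kinetochore had a median of -0.94 over 6 genes, 3 of them past 2-fold (50%, against 7.87% of all genes). With scaling to the 75th percentile and with loess only Cenpf passed (-1.07 in each). With normexp and quantile normalization Cenpf, the lowest of the role, fell short (-0.93). Cenpf, a large microtubule-binding protein of the outer kinetochore that accumulates in G2, had the lowest ratio of all 43 genes, with 2965 and 1270 (2.34-fold lower, log2 ratio -1.22). Its other probe had 785 and 269 (-1.54). The lowest was instead Mki67 with normexp and quantile normalization (-1.08, Cenpf -0.93) and with loess (-1.08, Cenpf -1.07). Cenpe, the kinesin that moves chromosomes to the metaphase plate, had 6056 and 2997 (-1.02). The NDC80 complex, which couples kinetochores to microtubules, had 3 of its 4 subunit genes in the set. Ndc80 had 549 and 274 (2.001-fold lower, only just past the threshold, and a log2 ratio of -0.40 with normexp and quantile normalization), Nuf2 had 1478 and 832 (-0.83), and Spc25 had 14902 and 8128 (-0.87) with -0.54 at its other probe. Spc24, the subunit gene outside the set, was closer to level at 6704 and 5812 (-0.21) and was looked up after the values were seen. Cenpa, the histone H3 variant that marks the centromere, stood apart with 1992 and 1608 (-0.31).

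The chromosomal passenger complex, which corrects faulty attachments and works again at cytokinesis, had a median of -0.69 over 3 genes. Birc5, survivin, had 25980 and 15862 (log2 ratio -0.71) and Incenp, its scaffold, had 16891 and 10458 (-0.69). Aurkb, the kinase of the complex, had 1243 and 910 (-0.45), and its other probe had -0.47. The ratio of Aurkb was therefore above that of its relative Aurka at -0.98, though this comparison has no replicate.

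The spindle proteins had a median of -1.07 over 5 genes. Of these, 3 were past 2-fold (60%, against 7.87% of all genes) and all 5 past 1.5-fold (against 18.6%). The lowest of them fell short of 2-fold with the 75th percentile (Aspm, -0.99), loess (Ckap2, -0.999) and normexp and quantile normalization (Ckap2, -0.92). The median was the lowest of the 9 roles except with normexp and quantile normalization, where the condensin role was lower (-0.80 against -0.77). Aspm, a protein of spindle poles, had 1402 and 632 (2.22-fold lower, log2 ratio -1.15). Ckap2, a microtubule-stabilizing protein, had 4404 and 2016 (-1.13), and Nusap1, which bundles spindle microtubules near chromosomes, had 2387 and 1134 (-1.07). Tpx2, the activator of Aurora A on the spindle, had 1963 and 1091 (-0.85), and Hmmr, a microtubule-binding protein of spindle poles, had 1717 and 980 (-0.81). The 3 probes of Hmmr ran from -1.09 to -0.65.

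The 4 cytokinesis genes were close to each other, with a median of -0.68. All were past 1.5-fold, against 18.6% of all genes, and 0 past 2-fold, against 7.87%. With scaling to the 75th percentile Anln (-0.57), Ect2 (-0.43) and Racgap1 (-0.48) fell short of 1.5-fold. So they did with loess (-0.581, -0.43 and -0.50). Prc1, which crosslinks the microtubules of the central spindle, had the lowest ratio with 6078 and 3181 (log2 ratio -0.93), but -0.70 at its other probe. Anln, anillin of the contractile ring, had 2636 and 1591 (-0.73). Ect2, the exchange factor that activates RhoA at the cleavage site, had 1949 and 1297 (-0.59), with -0.47 at its other probe. Racgap1, which recruits Ect2, had 3396 and 2188 (-0.63), with -0.93 at its other probe. The order within the role thus depended on the probe.

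The genes of chromosome structure had a median of -0.88 over 7 genes, 2 of them past 2-fold (28.6%, against 7.87% of all genes). With scaling to the 75th percentile both, Mki67 (-0.97) and Ncapg (-0.92), fell short. With loess and with normexp and quantile normalization only Mki67 passed (-1.08 in each). Mki67, the gene of Ki-67, the coat protein of mitotic chromosomes that is used as a stain for cycling cells, had 22683 and 10404 (2.18-fold lower, log2 ratio -1.12). Top2a, the topoisomerase that disentangles sister chromatids, had 7200 and 3900 (-0.88), and its other probe had -1.03. The condensin I subunits were lower in the order Ncapg with 3500 and 1662 (-1.07), Ncapd2 with 10735 and 5526 (-0.96) and Ncaph with 4781 and 2744 (-0.80). The SMC subunits, which condensin I shares with condensin II, were higher in ratio than these. Smc4 had 4128 and 2592 (-0.67) with 3 probes from -0.67 to -0.17, the widest spread of a gene in the set (0.50), and Smc2 had 1966 and 1746 (-0.17).

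**Figure D4:**
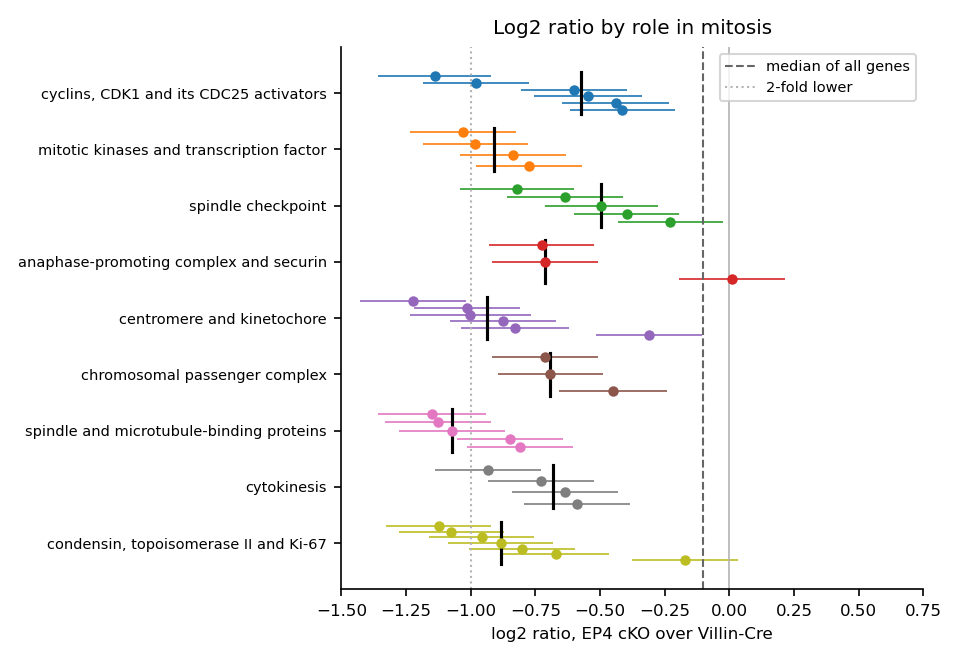
Log2 ratio (EP4 cKO over Villin-Cre) of the 43 genes by role, each point a gene with the scanner software's error of the ratio as a bar, and the black line the median of the role. Role medians run from -1.07 (spindle) to -0.50 (spindle checkpoint), and all lie left of the median of all genes (dashed, -0.10).

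The rest of the mitotic machinery was also mostly lower. Of 114 further mitotic genes 111 had a value, with a median log2 ratio of -0.43. Past 2-fold, 15 of them were lower (13.5%, against 7.87% of all genes) and 0 higher, and past 1.5-fold 43 were lower (38.7%, against 18.6%). With normexp and quantile normalization 6 were lower past 2-fold, when 2.67% of all genes were. Among those well above background on both arrays the lowest ratios were those of Dlgap5, a spindle protein (1037 and 121, log2 ratio -3.09), Kif18b, a kinesin of microtubule ends (547 and 119, -2.20), Kntc1, a kinetochore protein of the checkpoint (1548 and 410, -1.92), Cep192, a centrosome scaffold (-1.63) and Espl1, separase (-1.29). The highest were those of Mad2l1bp (0.57), which silences the checkpoint, Wee1 (1032 and 1520, 0.56), the kinase that holds CDK1 off, Mis18a (0.43), Cenpj (0.37) and Cep55 (0.31). By complex, the 12 kinesins had a median of -0.88 with 4 past 2-fold (Kifc1 as a bound), and the 12 outer kinetochore genes with a value had -0.44 with 2. The 12 genes of the anaphase-promoting complex (-0.35), 12 inner kinetochore CENP genes (-0.39), 9 of cohesin and its regulators (-0.27) and 3 condensin II subunits (-0.38) had 0 past 2-fold. At the 7.87% of all genes, groups of this size would hold about 1 such gene or none, and the complexes were grouped after the values were known.

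Genes of the step before, G1/S and DNA replication, lay near the median of all genes. Of 68 genes 66 had a value, with a median of -0.13, and 1 was more than 2-fold lower (1.52%, against 7.87% of all genes) and 0 higher (against 4.86%). The 1 gene was Clspn, with 196 and 90.6 (log2 ratio -1.11), and it did not pass 2-fold under the 5 other scalings and normalizations. The next lowest ratios were those of the E2F factors E2f2 (-0.76) and E2f7 (-0.69), followed by Rfc2 (-0.64) and Pold1 (-0.62). The highest were Pole2 (0.77), Mcm3 (4539 and 7473, 0.72), Ccne1, cyclin E1 (0.69), Cdk2 (0.58) and Mcm4 (0.58). The 6 genes of the MCM helicase, which is loaded in G1 and unwinds DNA in S phase, had a median of 0.19. The median of the 43 mitosis and G2/M genes was thus lower than that of the replication genes on the same arrays, without a test of the difference.

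**Figure D5:**
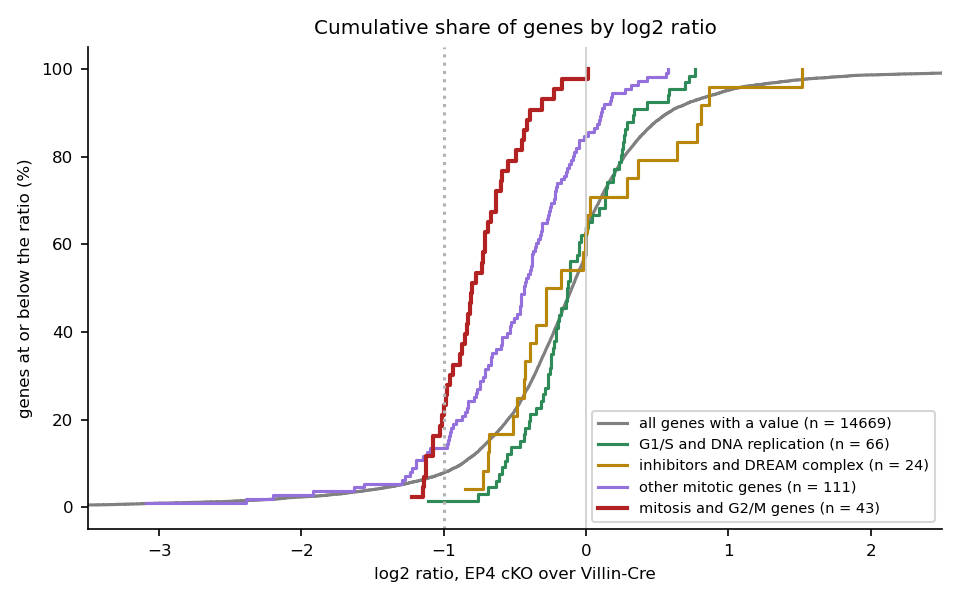
Cumulative share of genes (%) at or below each log2 ratio (EP4 cKO over Villin-Cre) for the 43 mitosis and G2/M genes, the other mitotic genes, the G1/S and DNA replication genes, the inhibitors and DREAM complex genes and all genes with a value; the dotted line is 2-fold lower. The mitosis and G2/M curve (median -0.80) lies left of the other mitotic genes (-0.43), and the G1/S curve (-0.13) runs near that of all genes (-0.10).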

How the data were processed

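The authors deposited 1-colour scanner output for 2 arrays, 1 per genotype, as the intensity of each spot after background subtraction and detrending by Agilent Feature Extraction (11.5.1.1 in the submitters' processing notes, 12.0.3.1 per the file headers). The deposited flags marked control spots, outlier spots and signals well above background. The authors' scaling to a trimmed mean is not contained in these values, and a scaling of that kind was made here. Which spots entered their mean is not given in the sources used here. Control spots and 195 outlier spots were left out (all spots were an alternative), and the trimmed mean (2% removed at each end) was set to 2500 by multiplying the Villin-Cre array by 3.45 and the EP4 cKO array by 2.68. Probes well above background made up 45.4% and 51.6% of 56593. A probe seen on 1 array only had its dim side held at its own signal or the array's floor (125 and 57.8), whichever was higher, which gives a bound, and a bound not exceeding 1 was set to a log2 ratio of 0. Probes were named through RefSeq accessions in a GRCm38.p6 gene table (32989, 58.3%), and the probe with the highest mean log2 signal stands for its gene.

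Groups came from the labels. No test was possible with a single array in each group, and the number of arrays limits the precision. The text names all 43 members, Ptger4, the 5 highest and 5 lowest genes of each cell cycle list among those well above background on both arrays, and marker genes past 2-fold where a list had 5 or fewer; other genes were singled out after their values were seen. The members and lists were chosen with earlier results of these data known. Alternatives were scaling to the 75th percentile or to a trimmed mean over all spots, normexp (offset 50) with quantile normalization, loess (span 0.3), probes above background on both arrays, no filter, 1 floor, thresholds of 1.5-fold and 3-fold, and the mean of all probes. Scaling to E1A controls, and each other scaling with the 1.5-fold threshold, were added after seeing the data. Normexp used the median signal of spots. A marker list that was also examined is not reported here. The steps were tested on simulated data. Software was limma 3.58.1 in R 4.3.3, and statsmodels 0.14.6, pandas 2.3.3, matplotlib 3.10.9 and numpy 2.4.6 in Python 3.11.15.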

Additional observations from a re-analysis of the deposited data

How the results depend on the processing

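No paired analysis was possible because there was 1 array per genotype, and for the same reason no array could be left out. The median of the 43 genes stayed below that of all genes under every alternative, by -0.70 to -0.43 with 39 to 43 genes below it, the smallest difference being that with no filter on dim probes (-0.43, with -0.37 as the median of all genes). The number of the 43 genes more than 2-fold lower was 1 with the 75th percentile, 1 with normexp, 2 with loess, 3 with a trimmed mean over all spots, 33 at 1.5-fold and 0 at 3-fold. For all genes the counts lower were 392 (normexp), 692 (loess), 7213 (no filter), 2726 (1.5-fold) and 533 (3-fold), and the counts higher were 1117 (loess), 1169 (no filter), 1444 (1.5-fold) and 324 (3-fold). The counts of other mitotic genes lower were 6 (normexp), 43 (1.5-fold) and 5 (3-fold). Those of G1/S genes were 0 (75th percentile, normexp, loess, all spots and 3-fold), 2 (no filter) and 6 (1.5-fold), and those of inhibitors 1 (no filter) and 4 (1.5-fold). With normexp the medians of the checkpoint, centromere and spindle roles were -0.20, -0.68 and -0.77, the condensin role then being lowest (-0.80). With scaling to the E1A controls 0 of the 43 genes passed 2-fold downward and 1 upward (Pttg1, 1.05), 7 were below 0, and Foxm1 (0.014), Cenpe (0.028) and Ndc80 (0.043) changed sign from past 2-fold. The counts over all genes were then 331 lower and 5807 higher, 3 other mitotic genes and 0 G1/S genes were lower, and the medians were 0.24 (the 43 genes), 0.87 (all genes), 0.47 (cyclins), 0.13 (kinases), 0.55 (checkpoint), 0.33 (anaphase-promoting complex), 0.11 (centromere), 0.35 (passenger complex), -0.030 (spindle), 0.36 (cytokinesis), 0.16 (condensin), 0.61 (other mitotic), 0.91 (G1/S) and 0.81 (inhibitors). Scaling shifts all genes together by construction; the cause of the unequal E1A signals was not tested. Signal over background did not limit the 43 genes, all of them well above it on both arrays.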

Other observations

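Genes that hold the cycle back, and those of the DREAM complex, were spread in both directions. Of 25 such genes 24 had a value, with a median log2 ratio of -0.23, 0 more than 2-fold lower, against 7.87% of all genes, and 1 more than 2-fold higher, against 4.86%, so that the call upward was near the share of all genes. Ccng2, cyclin G2, a cyclin of resting and arrested cells, had signals of 6240 (labelled Villin-Cre) and 17815 (labelled EP4 cKO), 2.85-fold higher. Cdkn1a, the CDK inhibitor p21, had 16232 and 29483 (log2 ratio 0.86), and Gadd45a, a DNA damage response gene, had 3182 and 5556 (0.80). Tfdp1 (0.78), a dimer partner of E2F factors, and Rbl1 (0.64), the p107 pocket protein, followed. The lowest were Tfdp2 (-0.85), Rbl2, the p130 pocket protein of DREAM (-0.72), Cdkn2b (-0.69), Btg2 (-0.68) and E2f4 (-0.51). Each of these families was split, with Rbl1 above and Rbl2 below 0 among the pocket proteins and Tfdp1 above and Tfdp2 below 0 among the E2F partners, and Rb1 had 0.37. With scaling to the E1A controls the median of the list was 0.81.

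The promoter strings were also counted in the other lists. CHR and CCAAT lay in 1 window in 32.3% of 93 other mitotic genes, 14.3% of 56 G1/S genes and 9.52% of 21 inhibitor and DREAM genes, while an E2F string lay in 10.8%, 37.5% and 23.8% of them. Among other mitotic genes with a value and a window, the 29 with both strings had a median log2 ratio of -0.71 with 7 more than 2-fold lower (24.1%), and the 61 without both had -0.34 with 4 (6.56%). This split was made after the values were known and carries no test. Within the 43 mitosis and G2/M genes the same split gave -0.81 and -0.83.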
